A study of Homo sapiens with 32 samples.

Results

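Integrin and laminin subunit genes were taken from the RefSeq gene table of GRCh38.p14 as the protein-coding genes named for an integrin alpha or beta subunit or for a laminin alpha, beta or gamma chain. The rule gave 38 genes of 20033 protein-coding genes: 26 integrin subunits, of which 18 are alpha and 8 are beta subunits, and 12 laminin chains. It used gene names and no measured value. A peak was counted for a gene when it overlapped the gene body by at least 1 bp, so the unit throughout is the number of m6A peaks per gene body and library.

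The peaks come from MeRIP-seq, in which RNA fragments carrying N6-methyladenosine (m6A) are pulled down with an antibody and the immunoprecipitated (IP) fraction is compared with its Input. There were 16 IP libraries, 8 from 786-O, a clear cell renal cell carcinoma (ccRCC) line, and 8 from RPTEC, a renal proximal tubule line immortalized with hTERT. Each cell line had 4 lines with 2 replicates: the parental WT line, SETD2KO-1 and SETD2KO-2 as knockout clones, which had been generated earlier, and SETD2KO-1R, a clone derived from SETD2KO-1 that carries a tagged full-length SETD2 transgene. SETD2 is the methyltransferase that places the H3K36me3 mark on gene bodies, and the comparison asks whether m6A peaks in these genes follow SETD2 status.

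SETD2KO libraries (SETD2KO-1 and SETD2KO-2, 4 per cell line) were set against SETD2-expressing libraries (WT and SETD2KO-1R, also 4). Each line is 1 clone or 1 parent culture, so libraries of a line share their history, and no label says that the 2 replicates came from separate cultures. The p-values then measure the spread between libraries. The lists held 25710 to 39670 peaks in 786-O and 19249 to 31207 in RPTEC, and they carry no read counts, so the depth behind a peak is unknown. A missing peak can go with less m6A or with less RNA of the gene, and these cannot be told apart in the lists.

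Integrins are pairs of one alpha and one beta subunit that span the cell membrane and bind matrix outside and the cytoskeleton inside. Laminins are trimers of an alpha, a beta and a gamma chain and make up the core of basement membranes, including that of the renal tubule. The alpha subunit largely sets what an integrin binds: the pairs with ITGA3, ITGA6 or ITGA7 bind laminin, those with ITGA1, ITGA2, ITGA10 or ITGA11 bind collagen, and those with ITGA5, ITGA8 or ITGAV bind the RGD sequence of ligands such as fibronectin.

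m6A peaks were found in most of the integrin and laminin genes. In all, 29 of the 38 genes (76.3%) held a peak in at least 1 library, against 67.0% of all protein-coding genes, and 13 (34.2%) held one in all 16 libraries, against 23.1%. A longer gene body can meet more peaks, and gene length was not taken into account in these shares. The 13 genes include ITGA1, ITGA5 and ITGAE, most or all of whose peaks also overlapped other genes. The genes without any peak were ITGA2B, ITGA4, ITGA8, ITGA10, ITGAL, ITGAM, LAMA1, LAMB4 and LAMC3. Of the rest, 4 held peaks in 786-O alone (ITGA7, ITGAD, ITGB2 and ITGB7) and 5 in RPTEC alone (ITGA2, ITGA11, ITGB4, LAMA2 and LAMA4), which is 10.5% and 13.2% of the 38 genes, beside 6.16% and 4.94% of all protein-coding genes. ITGB2 and ITGB7 held 1 peak each, both in 786-O SETD2KO-2 replicate 1, the longest list. These peaks stood low, at the 9.7 and 2.98 percentile of the score.

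Per library, 18 to 22 of the genes had a peak in 786-O and 17 to 22 in RPTEC. The libraries held 63 to 100 peaks in these genes in 786-O and 52 to 100 in RPTEC. The mean was 84.2 ± 10.7 peaks in the 786-O SETD2KO libraries and 79.8 ± 14.4 in the SETD2-expressing ones (SD, n = 4 each). For RPTEC the corresponding means were 75.0 ± 21.3 and 81.2 ± 11.1. The ranges of both groups overlapped in each cell line, and the lowest value, 52, belonged to the shortest list, RPTEC SETD2KO-2 replicate 2. Per 10000 peaks of a library, the 786-O means were 24.7 ± 1.59 in SETD2KO and 25.3 ± 1.29 in SETD2-expressing libraries. In RPTEC they were 29.4 ± 3.39 and 29.3 ± 1.76, so the order of the groups turned in both cell lines.

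**Figure D1:**
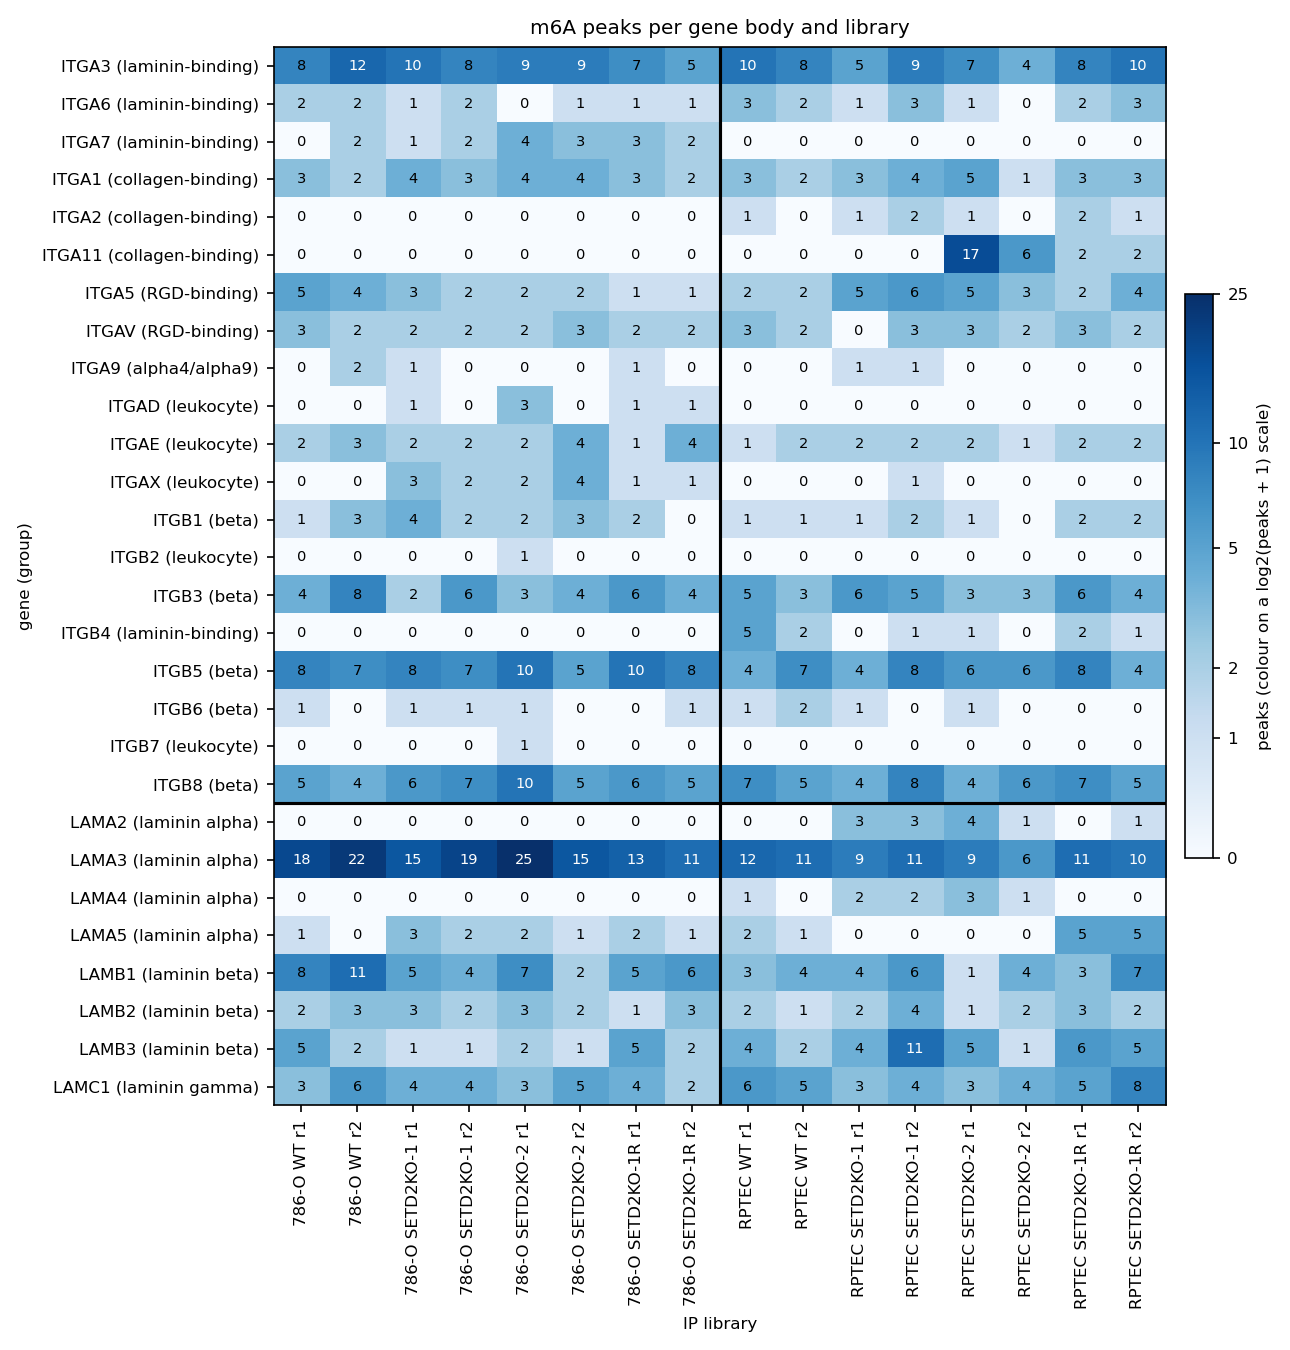
Number of m6A peaks in the integrin and laminin genes reported here that had a peak (rows, with their group) in each of the 16 IP libraries (columns, r1 and r2 being the replicates), with the colour on a log2(peaks + 1) scale. LAMA3 reaches 25 peaks in 786-O SETD2KO-2 replicate 1, and the blank stretches at ITGA7, ITGA11, LAMA2 and LAMA4 show genes with peaks in 1 cell line or in some of its lines.

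Among laminin-binding integrins, ITGA3, the partner of ITGB1 in tubule cells, had the most peaks of the integrins, with 5 to 12 per library in 786-O and 4 to 10 in RPTEC. Its peaks stood high in the lists, the median at the 82.1 percentile of the score. ITGA6, which pairs with ITGB4 at hemidesmosomes, had a peak in 14 libraries and ITGB4 in 6, all of them RPTEC. The laminin receptor subunit ITGA7, best known from muscle, had peaks in 7 libraries, all of them 786-O.

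Among collagen-binding integrins, ITGA1 had peaks in all 16 libraries, but 34 of its 49 peaks also overlapped PELO or PELO-AS1, genes inside its body. Similarly, all 49 peaks of the fibronectin receptor subunit ITGA5 lay in GPR84-AS1 as well, and 31 of 34 peaks of ITGAE, which marks lymphocytes in epithelia, overlapped HASPIN or P2RX5. The same held for 17 of 25 peaks of ITGA6 and all 6 of ITGA9, which lay in genes named as antisense RNAs too. The lists have no strand, so peaks of such overlapping genes cannot be assigned to one of them. Of the other RGD-binding subunits, ITGAV had peaks in 15 libraries, and among the beta subunits ITGB3, ITGB5 and ITGB8 had them in all 16 and the common partner ITGB1 in 14. Altogether 197 of the 1281 pairs of a peak and an integrin or laminin gene involved a peak that also overlapped another gene.

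The laminin chains of the epithelial trimers were well covered. LAMA3, LAMB1, LAMB2, LAMB3 and LAMC1 had a peak in all 16 libraries. LAMA3 and LAMB3 are chains of laminin-332, the anchoring laminin of epithelia. LAMA5, the chain of mature tubular basement membrane, had peaks in 11 libraries, and LAMA2 and LAMA4, chains of muscle, mesenchyme and vessels, in 5 each.

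In RPTEC, fewer peaks lay in the gamma chain LAMC1 and the alpha chain LAMA5 in every SETD2KO library than in any SETD2-expressing one. These were 2 of the 25 genes with a peak in RPTEC, beside 1.41% of all protein-coding genes with a peak. No gene lay above, beside 1.01%. With 4 libraries against 4 the exact permutation test cannot go below p = 0.0286, and no gene of the whole table passed 0.05 after Benjamini-Hochberg adjustment. Before adjustment 123 genes were higher and 172 lower in SETD2KO at p under 0.05.

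LAMC1, the gamma chain shared by most laminins, held 6 and 5 peaks in the 2 RPTEC WT libraries, 3 and 4 in SETD2KO-1, 3 and 4 in SETD2KO-2, and 5 and 8 in SETD2KO-1R. The SETD2KO libraries ended at 4 peaks where the SETD2-expressing ones began at 5. The means were 3.50 ± 0.577 and 6.0 ± 1.41 (SD, n = 4 each; exact two-sided permutation p = 0.0286, adjusted p = 1). The groups overlapped when LAMC1 was counted per 10000 peaks of a library or by base pairs covered. The RPTEC lists held 25184.5 peaks on average in SETD2KO and 27681.2 in SETD2-expressing libraries. With the same number of peaks from each library the groups stayed apart, and the difference in means was -3.0 peaks beside -2.5. In 786-O the same gene held 3 and 6 peaks in WT, 4 and 4 in SETD2KO-1, 3 and 5 in SETD2KO-2, and 4 and 2 in SETD2KO-1R, and the groups overlapped.

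LAMA5 held 2 and 1 peaks in RPTEC WT, none in the 4 SETD2KO libraries, and 5 and 5 in SETD2KO-1R. Both SETD2KO clones lacked it, and the re-expressing clone had more peaks than WT. The mean of the SETD2-expressing libraries was 3.25 ± 2.06 (SD, n = 4; exact two-sided permutation p = 0.0286, adjusted p = 1). In 786-O it held 1 and 0 peaks in WT, 3 and 2 in SETD2KO-1, 2 and 1 in SETD2KO-2, and 2 and 1 in SETD2KO-1R, with overlapping groups. With the upper 50% of each list by score LAMA5 no longer stood apart. The test of the difference between the effects in both cell lines gave p = 0.00571 for LAMA5 by exact permutation within cell lines, with adjusted p = 1. It was the one integrin or laminin gene under 0.05 before adjustment, beside 485 of all 13418 genes tested, and none of the 13418 passed after it.

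ITGA6 held 3 and 2 peaks in RPTEC WT, 1 and 3 in SETD2KO-1, 1 and 0 in SETD2KO-2, and 2 and 3 in SETD2KO-1R, so the groups overlapped. Of its 25 peaks over both cell lines, 17 also lay in ITGA6-AS1 or PDK1-AS1. With the same number of peaks from each library, or without peaks that lay in another gene, all 4 SETD2KO libraries were below the SETD2-expressing ones. These counts include the peaks of the ITGA6 region given below, so that region is not a separate observation. ITGB4, the partner of ITGA6, was described after its values were seen. It held 5 and 2 peaks in WT, 0 and 1 in SETD2KO-1, 1 and 0 in SETD2KO-2, and 2 and 1 in SETD2KO-1R. The groups met at 1 peak.

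LAMA4 and LAMA2, chains of mesenchymal and vascular laminins, lay on the other side in RPTEC. LAMA4 held 1 and 0 peaks in WT, 2 and 2 in SETD2KO-1, 3 and 1 in SETD2KO-2, and none in SETD2KO-1R, and WT replicate 1 met the lowest SETD2KO library at 1 peak. LAMA2, described after its values were seen, held no peak in WT, 3 and 3 in SETD2KO-1, 4 and 1 in SETD2KO-2, and 0 and 1 in SETD2KO-1R. For each of these chains the test gave p = 0.0571 by exact two-sided permutation, with adjusted p = 1. Neither gene had a peak in any of the 8 libraries of 786-O. Counted per 10000 peaks of a library, both were higher in all 4 RPTEC SETD2KO libraries than in any SETD2-expressing one, as was ITGA5. Of the 9 peaks of LAMA4, 4 also lay in LAMA4-AS1. Without peaks that lay in another gene, LAMA2 stood higher in all 4 SETD2KO libraries and LAMA4 did not.

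**Figure D2:**
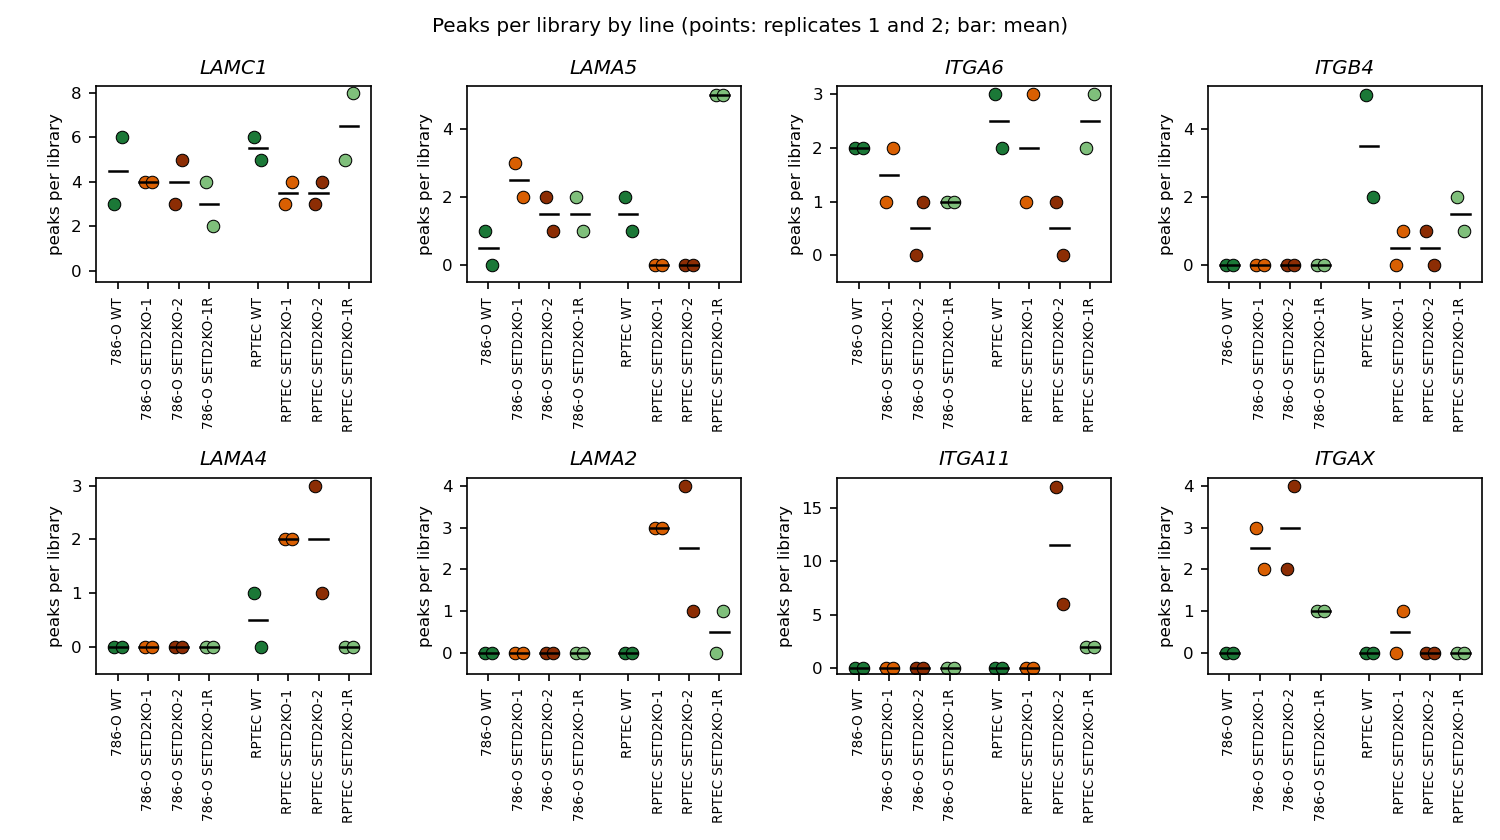
Peaks per library for 8 genes by cell line and line, with a point for each of the 2 replicates and a bar at their mean. In RPTEC the points of LAMC1 and LAMA5 in both SETD2KO clones lie below all WT and SETD2KO-1R points, those of LAMA4 and LAMA2 lie mostly above, and ITGA11 has peaks only in SETD2KO-2 and SETD2KO-1R.

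The collagen receptor subunit ITGA11, also described after its values were seen, differed between lines of the same SETD2 status. It held 17 and 6 peaks in RPTEC SETD2KO-2, 2 and 2 in SETD2KO-1R, and none in WT, in SETD2KO-1 or in 786-O. These 27 peaks formed 19 regions, 14 of them called in 1 library. The region at chr15:68302110-68303277, near the 3′ end of the gene, was called in both SETD2KO-2 and both SETD2KO-1R libraries.

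In 786-O, ITGAX was the single gene that stood apart by SETD2 status. It was 1 of 24 genes with a peak there, beside 1.52% of all genes higher and 0.901% lower in SETD2KO. ITGAX, the alpha chain of a receptor of myeloid cells, held no peak in the 2 WT libraries, 3 and 2 in SETD2KO-1, 2 and 4 in SETD2KO-2, and 1 and 1 in SETD2KO-1R. The means were 2.75 ± 0.957 and 0.50 ± 0.577 (SD, n = 4 each; exact two-sided permutation p = 0.0286, adjusted p = 1). No gene passed adjustment, and 189 genes were higher and 112 lower in SETD2KO at p under 0.05 before it.

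The peaks of ITGAX ranked low, the median at the 31.6 percentile of the score, and the call was lost with the upper 50% of each list, with the 19249 peaks of highest score from every library, by base pairs covered and without peaks that lay in another gene. The region at chr16:31381579-31382719 was called in all 4 SETD2KO libraries and in 1 SETD2KO-1R library. The leukocyte markers PTPRC, CD3E, CD14 and LCP2 had no peak in any of the 16 libraries. The neighbour gene ITGAD, also of leukocytes, held 0 to 3 peaks in 786-O with no separation by SETD2 status.

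Overlapping peaks from the 8 libraries of one cell line were then joined into regions. This gave 192 regions in the integrin and laminin genes in 786-O and 213 in RPTEC. In RPTEC, 4 regions had a peak in each of the 4 SETD2-expressing libraries but in no SETD2KO library, which is 1.88% of these regions, beside 0.213% of all regions in protein-coding genes. The reverse was seen for 1 region, or 0.469%, beside 0.195%. In 786-O neither kind was found, beside 0.152% and 0.28% of all regions. With an overlap of at least 50 bp, the RPTEC count for SETD2-expressing libraries alone was 3.

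The region of LAMC1 lay at chr1:183103079-183103368, 65.3% of the way along the gene, and its peaks averaged the 95.5 percentile of the score.

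The region of ITGA6, at chr2:172427424-172427840, covered an annotated start at base 172427586, inside the gene body, and averaged the 90.3 percentile. The start at the first base of the gene, 172427336, met no peak in any library within its first 50 transcribed bases. In 786-O an overlapping region was called in 1 WT and 1 SETD2KO-1R library and in no SETD2KO library. The region called in RPTEC SETD2KO libraries alone was in LAMA4, at chr6:112254253-112254668, over an annotated start at base 112254567 and where LAMA4-AS1 also lies. The gene body goes on upstream of it to base 112254985. The LAMA4 region averaged the 84.8 percentile and was called in both replicates of both clones. Without peaks that also lay in another gene, this call was lost.

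**Figure D3:**
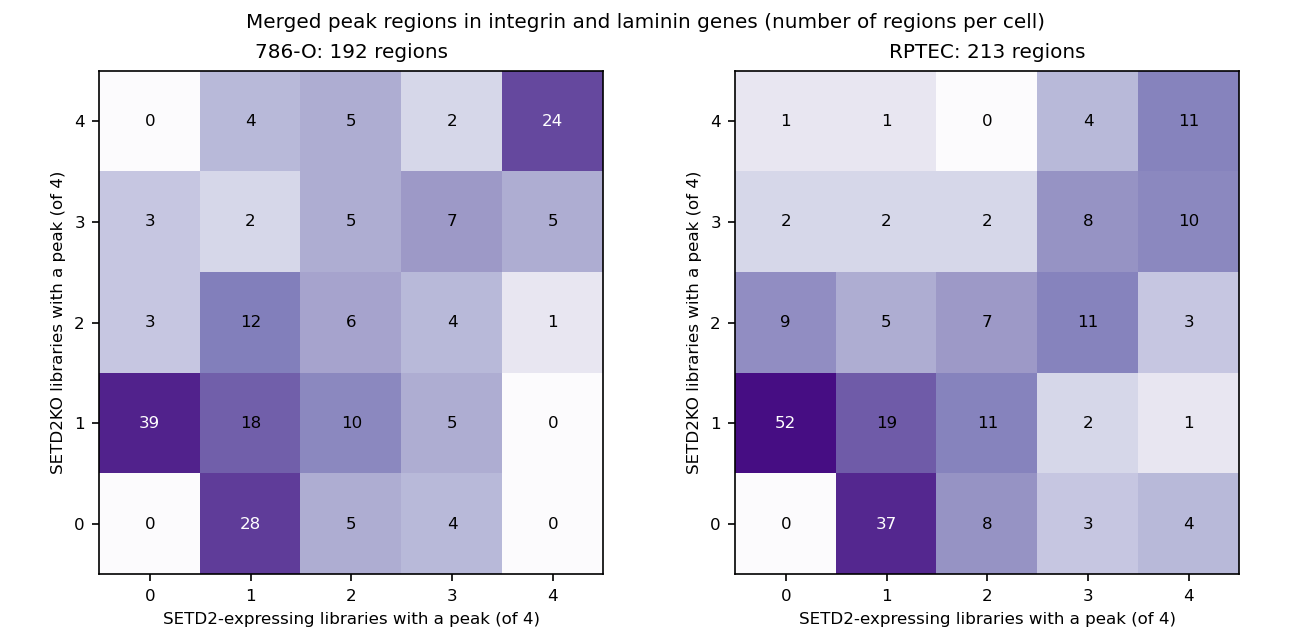
Number of merged peak regions in integrin and laminin genes by how many of the 4 SETD2-expressing libraries (x axis) and how many of the 4 SETD2KO libraries (y axis) called them, in 786-O (192 regions) and RPTEC (213 regions). The corner for SETD2-expressing libraries alone holds 0 and 4 regions, that for SETD2KO libraries alone 0 and 1, and the corner called by all libraries 24 and 11.

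Over both cell lines 277 regions lay in these genes. Of these, 9 were called in all 16 libraries, which is 3.25%, beside 4.85% of all regions in protein-coding genes. They lay in LAMC1, ITGB5, ITGA1 (in PELO), ITGB8, LAMB1, ITGA5, ITGAE (in HASPIN and P2RX5) and ITGA3, the last with 2. No region was called in all 8 libraries of one cell line and none of the other, beside 0.134% for 786-O alone and 0.156% for RPTEC alone.

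The peak at the start of LAMC1, chr1:183022804-183023969, was in all 16 libraries, while the region of the same gene called in RPTEC SETD2-expressing libraries alone lay 65.3% along it. A peak over an annotated start was therefore looked for in each gene with a start in the RefSeq promoter table. The table gave 33 starts of 26 of the genes, and the first 50 transcribed bases met a peak in at least 1 library at 12 of them (36.4%), beside 28.1% of 22198 starts of all protein-coding genes. The LAMC1 start was the one start met in all 16 libraries, beside 0.797% of all starts. The ITGAV start was met in 15 libraries.

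The writer complex of m6A prefers the sequence RRACH, where R is A or G and H is any base but G. The 12 motifs it spells, AAACA for one and GGACT for another, were searched on the transcribed strand alone, and matches may overlap. In the first 50 transcribed bases a match was found at 16 of the 33 starts (48.5%), beside 37.2% of all starts. Starts under a peak and with a match were those of 4 genes. LAMB2 had 4 matches in its first 50 bases and the others 1 each, and 30 bases that hold 1 match are shown for each (GRCh38.p14, transcribed strand, match in capitals).
LAMA4, minus strand, chr6:112254537-112254566: agaaggaagccaGGACAgcgcagtccccag
LAMA5, minus strand, chr20:62367283-62367312: AGACCcgccgggctcccgccgcgcgcgctg
LAMB2, minus strand, chr3:49133020-49133049: ctcaaagtcgctGGACTctaagctgtcgga
ITGB8, plus strand, chr7:20330913-20330942: aactcgggctctGGACTgcgggacgcctga

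The start of LAMA4 met a peak in the 4 RPTEC SETD2KO libraries and in no other. The LAMA5 start met one in 2 SETD2-expressing libraries of 786-O and 1 of RPTEC, the LAMB2 start in 7 libraries and the ITGB8 start in 4. The ITGA6 start that met peaks in the 4 RPTEC SETD2-expressing libraries and in 1 such 786-O library had no match in its first 50 bases, and neither had that of LAMC1. A match is a description of the letters and not of a modified base.

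Between the cell lines, LAMA3 and ITGA7 passed the test with more peaks in 786-O, and no integrin or laminin gene passed it with more in RPTEC. These were 2 of 29 genes tested at an adjusted p under 0.05, beside 3.44% of 13418 genes higher in 786-O and 1.92% lower. The libraries of a cell line share a parent line, so these p-values cover the libraries at hand and no other tumour or tubule lines. The cell lines were also grown in different media, and cell line and culture cannot be told apart. The 786-O lists were also longer, with a mean of 32818 peaks against 26433.

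LAMA3, the alpha chain of laminin-332, held 11, 16.5 and 25 peaks in 786-O as lowest, median and highest of 8 libraries, and 6, 10.5 and 12 in RPTEC. The ranges overlapped between 11 and 12 peaks. The means were 17.2 ± 4.68 and 9.88 ± 1.89 (SD, n = 8 each; exact two-sided permutation test, adjusted p = 0.0252). The difference in means was 7.38 peaks, and 4.0 when each library gave the same number of peaks (exact permutation test, adjusted p = 0.0434). An annotated start lies inside the gene, 183.6 kb from its first base, and its position was used after the values were seen to split the peaks. Before it lay 12.2 ± 2.49 peaks in 786-O and 7.5 ± 1.6 in RPTEC, and after it 5.0 ± 2.45 and 2.38 ± 0.744 (SD, n = 8 each), so 786-O had the higher mean in both stretches.

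ITGA7 held 0, 2 and 4 peaks in 786-O as lowest, median and highest and none in RPTEC. WT replicate 1 was the 786-O library without a peak. The mean in 786-O was 2.12 ± 1.25 (SD, n = 8; exact two-sided permutation test, adjusted p = 0.0318). The region at chr12:55689897-55690867 was called in 6 of the 8 libraries. With the same number of peaks from each library the adjusted p of ITGA7 was 0.238, and with the upper 50% of each list it was 0.262 for ITGA7 and 0.13 for LAMA3.

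**Figure D4:**
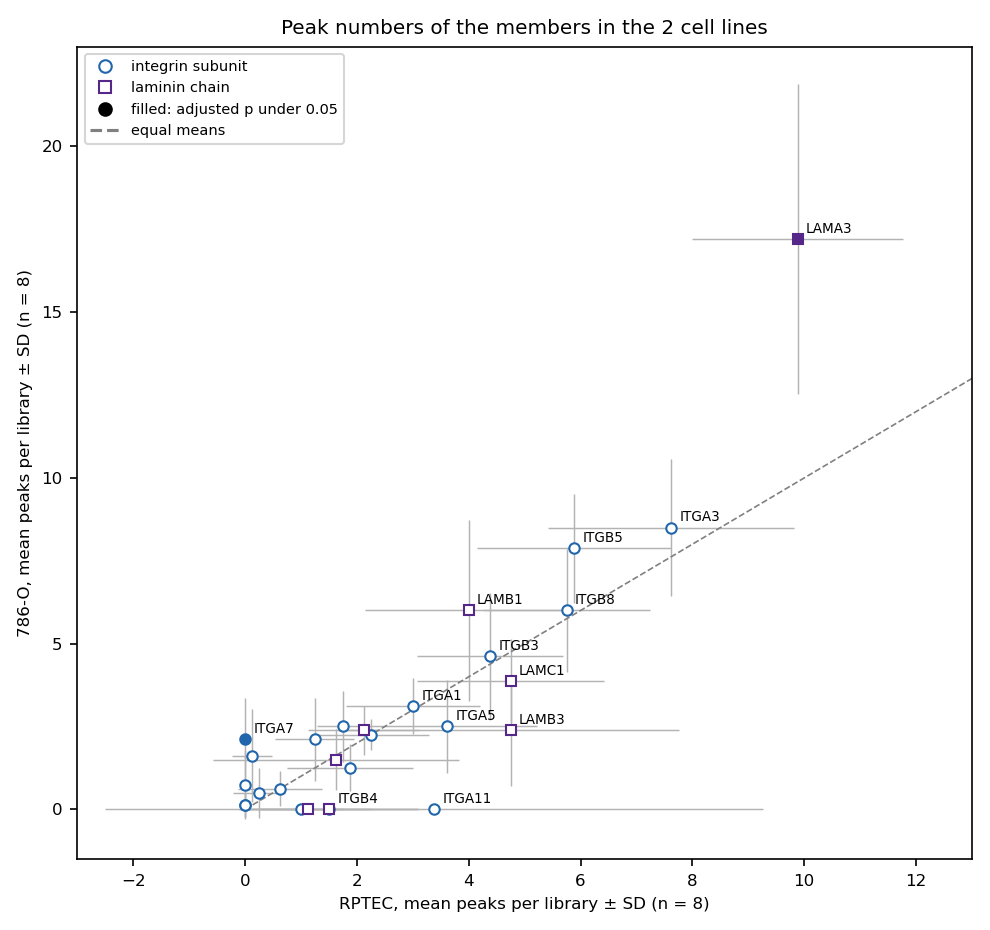
Mean peaks per library in 786-O (y axis) against RPTEC (x axis) for the integrin and laminin genes reported here that had a peak, with bars for the SD over 8 libraries and the dashed line for equal means. LAMA3 (17.2 against 9.88) and ITGA7 (2.12 against 0) are filled because their adjusted p is under 0.05, and ITGA11 has the widest bar in RPTEC.

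Of the genes with peaks in RPTEC alone, ITGA2, a collagen receptor subunit, and ITGB4 each had peaks in 6 of 8 libraries, with an adjusted p of 0.0813 by the exact permutation test. For LAMA2 and LAMA4 it was 0.178 and for ITGA11 0.328. ITGA2 had 1 region, called in 3 SETD2KO and 3 SETD2-expressing libraries. Other laminin chains did not pass the test either. LAMB1 had 6.0 ± 2.73 peaks in 786-O and 4.0 ± 1.85 in RPTEC, and LAMB3 2.38 ± 1.69 and 4.75 ± 3.01 (SD, n = 8 each; adjusted p of the exact permutation test 0.455 and 0.34).

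Along the gene, the share of peaks near the 3′ end differed from that of other genes by less than the spread between libraries. For the 20 genes with a known strand and a peak, 19.2% ± 2.34 of peaks in 786-O lay in the last 10% of the gene body, against 20.2% ± 1.17 for all protein-coding genes, and 20.9% ± 4.61 against 21.5% ± 1.25 in RPTEC (SD, n = 8 libraries each). In the first 10% lay 14.4% ± 2.09 of the peaks of these genes in 786-O, against 13.7% ± 1.47 for all protein-coding genes. In RPTEC the shares were 16.4% ± 2.12 and 12.7% ± 2.08, a gap larger than either SD that was not tested. Over both cell lines, 34 of the 49 peaks of ITGA1 lay in the first 10%, and 34 of its peaks also overlapped PELO or PELO-AS1. All 8 peaks of ITGA2 lay in the first 10% as well. The part of these genes in the gap was not tested. Members differed among themselves. LAMB3 had 57.9% of its 57 peaks in the last 10% and none in the first, LAMC1 had 38.2% in the last and 23.5% in the first, and LAMA3 had 5.99% in the last.

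**Figure D5:**
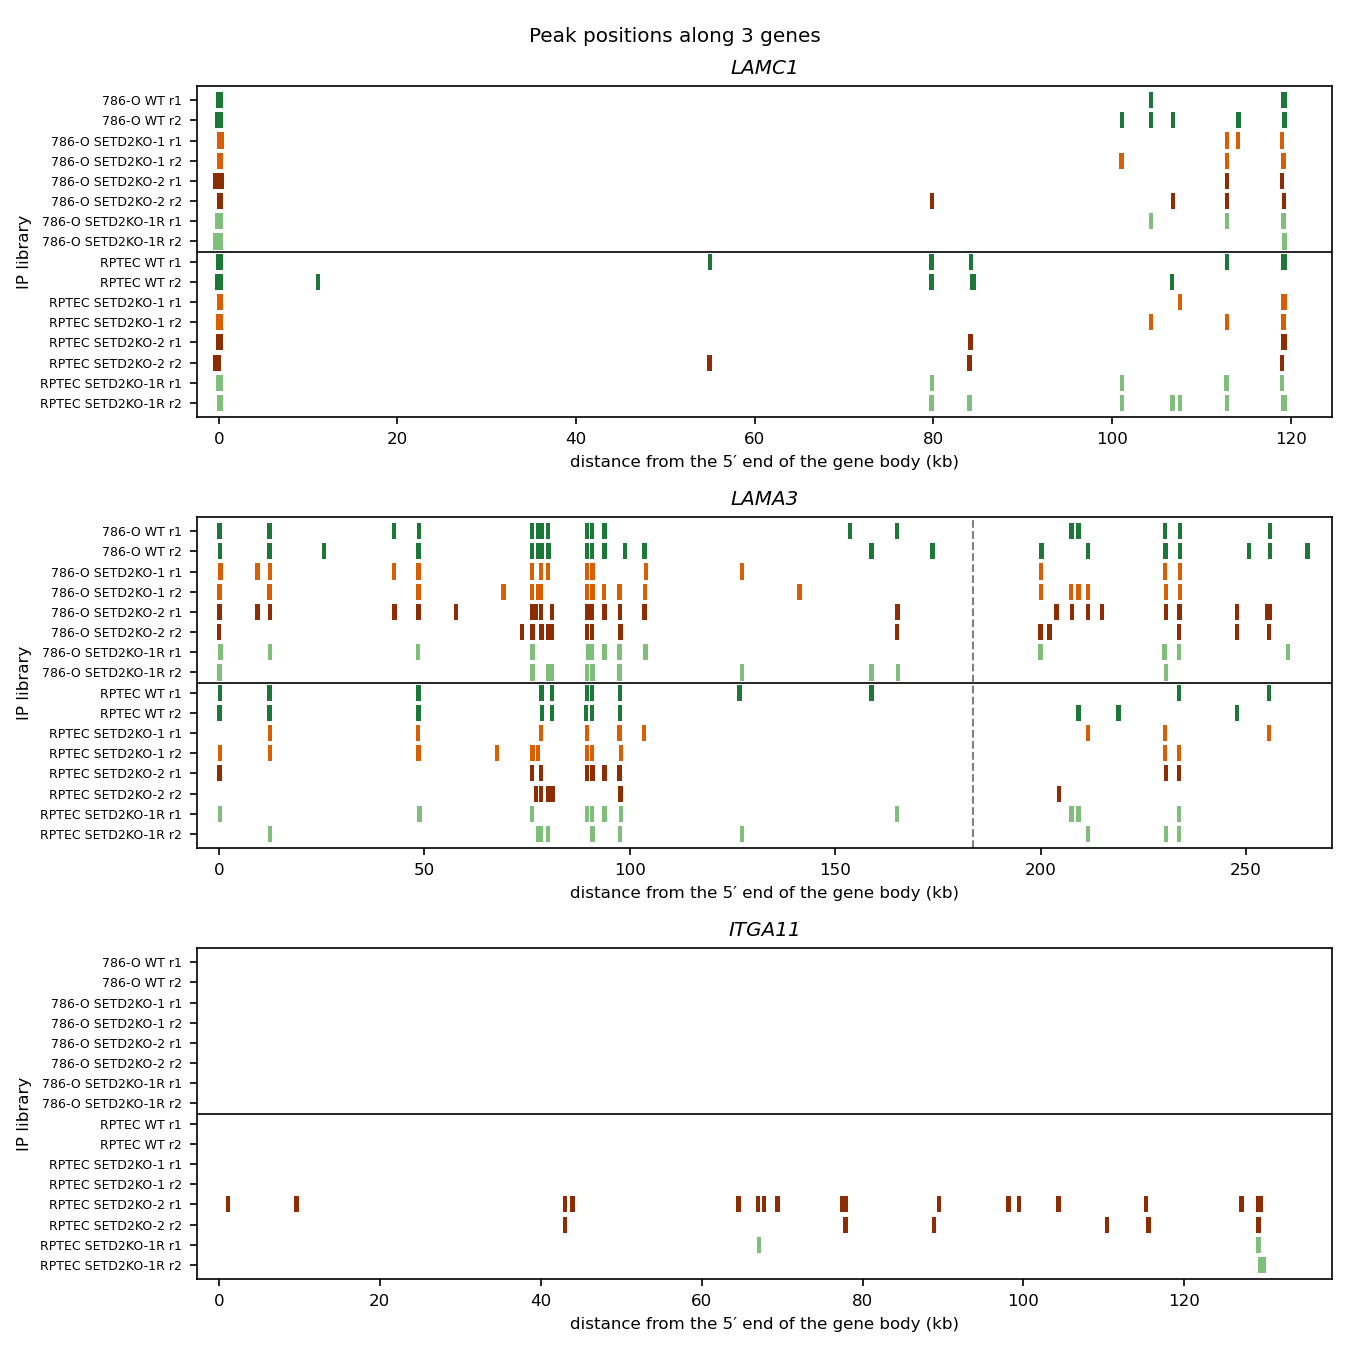
Positions of peaks along LAMC1, LAMA3 and ITGA11, in kb from the 5′ end of the gene body, with a row for each of the 16 libraries and a bar for each peak (narrow peaks are widened to 1 part in 250 of the gene to be visible; green WT, light green SETD2KO-1R, orange SETD2KO-1, brown SETD2KO-2). The LAMC1 start peak is in every row, its peak near 80 kb is in RPTEC WT and SETD2KO-1R and in 1 library of 786-O, and the dashed line marks the inner start of LAMA3 at 183.6 kb.

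A list of 39 other genes of cell adhesion (focal adhesion proteins, hemidesmosome and tetraspanin partners, other basement membrane genes, non-integrin laminin receptors and other integrin ligands) was counted the same way. By SETD2 status, 1 of 33 with a peak in 786-O was lower in SETD2KO and none higher, beside 0.901% and 1.52% of all genes. In RPTEC none of 34 stood apart, beside 1.41% lower and 1.01% higher. The gene was BCAM, a laminin receptor of the immunoglobulin family, with 2 and 2 peaks in 786-O WT, none in the 4 SETD2KO libraries and 1 and 1 in SETD2KO-1R (exact two-sided permutation p = 0.0286, adjusted p = 1). In RPTEC it held 4 and 2 peaks in WT, 1 and 2 in SETD2KO-1, 1 and 1 in SETD2KO-2, and 2 and 3 in SETD2KO-1R, and the groups met at 2 peaks.

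Between the cell lines, 2 of 36 genes of the list had more peaks in 786-O and 1 had more in RPTEC at an adjusted p under 0.05, beside 3.44% and 1.92% of all genes. TLN2, which links integrins to actin, had 5.50 ± 2.27 peaks in 786-O and 1.00 ± 0.535 in RPTEC (exact permutation test, adjusted p = 0.00831), and PARVB, a partner of integrin-linked kinase, 2.62 ± 1.85 and none (adjusted p = 0.0318). TNC, a matrix ligand of integrins, had 1.12 ± 0.835 and 3.88 ± 1.46 (SD, n = 8 each; exact permutation test, adjusted p = 0.0331).

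The tubule regulators PAX8, PAX2 and LHX1 and the epithelial keratins KRT8 and KRT18 had peaks in all 16 libraries, while CA9 and CDH1 had none. Of the genes of the differentiated proximal tubule, the brush-border enzyme GGT1 had peaks in all 16 libraries, CUBN in 1, and LRP2, AQP1 and SLC34A1 in none. The summed peaks of mesenchymal markers (VIM, CDH2 and FN1) ranged from 6 to 12 in the RPTEC SETD2KO libraries and from 5 to 12 in the SETD2-expressing ones, and those of epithelial markers from 7 to 17 and from 9 to 13. Of 4 endothelial markers, PECAM1, KDR and VWF had no peak, and CDH5 had 1 peak in each of the 4 RPTEC SETD2-expressing libraries and in no other. In 786-O the summed peaks of 5 ccRCC and hypoxia genes lay at 3 to 9 in SETD2KO and at 11 to 16 in SETD2-expressing libraries. The part of these differences in the values of LAMA5, LAMC1 and ITGAX was not tested. SETD2 itself held 4 to 6 peaks in RPTEC SETD2KO libraries and 7 to 11 in SETD2-expressing ones. In 786-O it held 4 to 10 and 7 to 10. Its peaks do not measure the loss of the protein.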

How the data were processed

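MeRIP-seq peaks of 16 IP libraries were used, and the 16 Input samples were not analysed here. Per the submitters' processing notes and the methods, the authors used STAR for alignment to hg38, HTSeq for counting, spiked-in E. coli RNA for scaling and MACS2 for peak calls of each IP library over its Input. The deposited lists give positions, a summit and a score whose scale is not stated. It was used for ranks inside each list and nowhere else. No read counts are given, so depth is unknown, and a longer list can hold more peaks of any gene.

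Peaks were assigned to gene bodies of RefSeq GRCh38.p14 by at least 1 bp. Peak numbers per gene were compared by exact two-sided permutation tests over libraries, 70 arrangements for 4 against 4 and 12870 for 8 against 8, with Benjamini-Hochberg adjustment over all protein-coding genes with a peak. By SETD2 status a gene was called where the groups did not overlap, and between cell lines at an adjusted p under 0.05. Values were given for integrin and laminin genes called in either way or holding a region called in all libraries of one SETD2 status and none of the other. The members and lists were chosen with earlier results of these data known. Replicate numbers did not pair libraries (r of replicate differences from -0.175 to 0.194). RefSeq gave a strand for 26 of the 38 genes. Counts cover all 38 genes, and some genes are not reported here by name. The steps were tested on simulated data. Calculations ran in Python 3.11.15 with SciPy 1.17.1, NumPy 2.4.6, Matplotlib 3.10.9 and pandas 2.3.3.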

Additional observations from a re-analysis of the deposited data

Results flagged for a closer look

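In groups of 4 libraries, 2 values lay far from the other 3 by Dixon's ratio, among 44 groups looked at. The cut-off marks about 1 in 20 groups by chance where values are continuous. These are small counts with ties, and a group of 3 equal values and 1 other is always marked, so that rate does not hold here. ITGAX had 1 peak in RPTEC SETD2KO-1 replicate 2 and none in the other RPTEC SETD2KO libraries. LAMA4 had 1 peak in RPTEC WT replicate 1 and none in the other RPTEC SETD2-expressing libraries. Both are single peaks.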

How the results depend on the processing

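By SETD2 status, 786-O genes higher in SETD2KO numbered 1 (ITGAX), and 0 with the upper 50% of each list, the same number of peaks, peaks in no other gene or covered bp, and 2 with the replicate block or SETD2KO-2 alone. Genes lower numbered 0, and 1 by covered bp (ITGAE) and 1 (LAMB3) per 10000 peaks, with the replicate block or with SETD2KO-1 alone. In RPTEC, genes higher numbered 0, and 2 (LAMA4 and LAMA2) with the upper 50%, the same number of peaks or covered bp, 3 per 10000 peaks, 1 with peaks in no other gene (LAMA2), 1 with the replicate block (LAMA4), 4 with SETD2KO-1 alone and 1 with SETD2KO-2 alone (ITGA11). Genes lower numbered 2, and 1 with the upper 50% (LAMC1), 1 by covered bp or per 10000 peaks (LAMA5), 3 with the same number of peaks or with peaks in no other gene (ITGA6 added), and 6 with SETD2KO-2 alone. Regions in SETD2KO alone numbered 0 in 786-O, and 2 and 3 with SETD2KO-1 or SETD2KO-2 alone, and 1 in RPTEC (LAMA4), and 0 with peaks in no other gene and 2 and 6 with either clone alone. Regions in RPTEC SETD2-expressing libraries alone numbered 4. They numbered 3 with the upper 50% (ITGAE among them), the same number of peaks, an overlap of at least 50 bp or the summit in the gene body. With either clone alone they numbered 5. Fewer libraries make such calls easier by construction. Genes higher in 786-O than in RPTEC numbered 2, 0 with the upper 50% and 1 (LAMA3) with the same number of peaks. The mean number of genes with a peak in 786-O, SETD2KO minus SETD2-expressing, was 1.5, and -0.25 with the same number of peaks.

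Leaving out each library in turn gave, in 786-O, 1 to 2 genes higher (2 without SETD2KO-1 replicate 2) and 0 to 1 lower (LAMB3 without SETD2KO-2 replicate 1). It gave 0 to 2 regions in SETD2KO alone (2 without SETD2KO-1 replicate 2, SETD2KO-1R replicate 1 or SETD2KO-1R replicate 2, and 1 without SETD2KO-2 replicate 1) and 0 to 2 in SETD2-expressing libraries alone (2 without WT replicate 1, and 1 without WT replicate 2 or SETD2KO-1R replicate 2). In RPTEC it gave 0 to 3 genes higher (1 if WT replicate 1 is dropped, 3 if SETD2KO-2 replicate 2 is, and 2 if SETD2KO-1R replicate 2 is), 2 to 5 lower (5 without SETD2KO-1 replicate 2), 1 to 2 regions in SETD2KO alone (2 without SETD2KO-1 replicate 1, SETD2KO-1 replicate 2 or SETD2KO-1R replicate 2) and 4 to 6 in SETD2-expressing libraries alone. Between the cell lines it gave 1 to 2 genes higher in 786-O and 0 to 2 lower. LAMA3 passed 0.05 in all 16 such fits and ITGA7 in 10, missing it without each of 6 RPTEC libraries (adjusted p up to 0.0517). SETD2KO minus SETD2-expressing ran from 1.08 to 2.08 genes and from -1.08 to 10.6 peaks per library in 786-O, and from -0.583 to 1.08 genes and from -14.6 to 1.42 peaks in RPTEC. Fisher's exact test of presence gave an adjusted p of 0.0632 for ITGA7. It has no bearing on LAMA3, which had a peak in all 16 libraries. The cause of these shifts was not tested. No other alternative changed a call by SETD2 status of LAMC1 or LAMA5 than those named. Depth is unknown, so a gene at 0 peaks may carry m6A below what the lists show.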
